A study of Homo sapiens with 14 samples.

Results

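Of 13072 SATB1 regions mapped in Jurkat cells, 8165 (62.5%) also carried both CTCF and H3K27ac, and these 8165 are described here. They were chosen by measured peak calls: a region had to be called in both SATB1 lists and to overlap by at least 1 bp a CTCF region called in at least 2 of the 3 control lists and an H3K27ac region called in both control lists. Within 2 kb of an annotated end of a protein-coding gene lay 3666 of them, called gene-end members below, and 4499 lay farther away, called distal members. The other SATB1 regions were 1116 with CTCF and no H3K27ac, 1680 with H3K27ac and no CTCF, and 2111 with neither.

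SATB1 is a chromatin organiser abundant in developing T cells, where it binds AT-rich DNA and gathers chromatin-modifying enzymes at the loci it holds. CTCF binds DNA through zinc fingers, halts cohesin and thereby sets loop anchors and insulator boundaries. H3K27ac, acetylation of lysine on the tail of histone H3, marks active promoters and enhancers. Sites with all these features are active regulatory elements that also carry an architectural protein.

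Jurkat, a human leukaemia line of T cell origin, is a long-established model of T cell signalling. Cells of the first group carried a lentiviral control hairpin RNA (shCtrl) and were profiled for SATB1 (2 libraries), H3K27ac (2) and CTCF (3). Cells of the second carried a lentiviral hairpin RNA against SATB1 (shSATB1) and were profiled for H3K27ac (2) and CTCF (3), while 2 libraries of Matrin 3, a nuclear matrix protein, came from Jurkat cells with no hairpin on the label. The assay was CUT&Tag, in which Tn5 transposase tethered to an antibody cuts and tags the DNA around the bound target. SATB1 itself was not profiled after knockdown, so the lists hold no check of it, and the labels do not call the replicates separate cultures, so each SD is a spread between libraries, perhaps a technical one. The control lists chose the regions and fix the direction of any difference from them, so differences between the arms are given as descriptions with no test.

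Each library is 1 list of peaks with the total and maximum signal of every peak, and depth is unknown. SATB1 lists held 15210 and 14726 peaks on chromosomes 1 to 22 and X, and shared the exact start of 6001 (40.8% of the shorter list), so both together count as 1 sample without a spread. H3K27ac lists held 15972 to 17925 peaks, and the Matrin 3 lists 24566 and 2105. CTCF lists held 31141 to 32540 peaks in shCtrl and 14695 to 20284 in shSATB1, and the lowest total signal in a CTCF list was 13359 to 14792 in shCtrl and 6017 to 7332 in shSATB1. A small set of markers matched the label. The T cell genes CD3E, CD3D, CD2, LCK, BCL11B and TCF7 had H3K27ac peaks at 1 or both ends throughout shCtrl. The B cell, myeloid and erythroid genes MS4A1, PAX5, SPI1, MPO, CD14, GATA1 and KLF1 had none. Wider lists of other lineages were mixed. CTCF and H3K27ac lay at an end of 5 of 12 B cell, 3 of 14 myeloid and 2 of 12 erythroid and megakaryocyte markers.

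Promoters under members illustrate the DNA behind these sites. Each sequence below is the strand of the gene, 5′ to 3′, 120 bases lying before the annotated start, from RefSeq GRCh38.p14, with the letters of a searched motif in capitals. The first 3 hold the core letters of a CTCF site and have the strongest CTCF peaks of such promoters (chosen after their values were seen). The next pair lost CTCF from every shSATB1 list. The last 3 lie under some of the highest SATB1 peaks at gene ends.
POLR3E: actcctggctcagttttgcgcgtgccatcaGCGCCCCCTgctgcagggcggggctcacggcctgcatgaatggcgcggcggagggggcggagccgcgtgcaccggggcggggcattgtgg
TMEM170A: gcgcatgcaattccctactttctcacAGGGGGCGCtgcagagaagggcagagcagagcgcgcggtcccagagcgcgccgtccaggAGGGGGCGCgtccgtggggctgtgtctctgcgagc
FAM133B: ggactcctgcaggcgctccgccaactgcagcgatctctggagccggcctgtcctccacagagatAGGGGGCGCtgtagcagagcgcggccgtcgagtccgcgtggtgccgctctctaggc
CMC1: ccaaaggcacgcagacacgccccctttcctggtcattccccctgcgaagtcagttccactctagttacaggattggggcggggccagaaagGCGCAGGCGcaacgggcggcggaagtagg
RPS6: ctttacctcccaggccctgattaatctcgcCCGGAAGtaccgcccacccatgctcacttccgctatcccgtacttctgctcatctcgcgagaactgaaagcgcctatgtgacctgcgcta
WDR74: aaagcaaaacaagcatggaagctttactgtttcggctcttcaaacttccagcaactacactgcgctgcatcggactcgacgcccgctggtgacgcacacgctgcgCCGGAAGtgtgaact
CALR: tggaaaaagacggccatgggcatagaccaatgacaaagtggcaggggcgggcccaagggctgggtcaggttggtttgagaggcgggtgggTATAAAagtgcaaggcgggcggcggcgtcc
ATP2C1: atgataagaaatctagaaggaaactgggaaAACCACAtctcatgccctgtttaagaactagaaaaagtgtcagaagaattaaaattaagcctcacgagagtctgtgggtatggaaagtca

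POLR3E, an RNA polymerase III subunit gene, is shown at chr16:22297253-22297372 on the plus strand, TMEM170A at chr16:75464820-75464939 on the minus strand and FAM133B at chr7:92590391-92590510 on the minus strand. Their capitals are the CTCF core AGGGGGCGC or its reverse complement, and TMEM170A holds 2 copies. CMC1, a gene for mitochondrial respiratory chain assembly, is at chr3:28241499-28241618 on the plus strand with an NRF1 motif. RPS6, a ribosomal protein gene, is at chr9:19380251-19380370 on the minus strand with an ETS motif, the site of a family of factors used widely at T cell and housekeeping promoters. WDR74, a ribosome biogenesis gene, is at chr11:62839591-62839710 on the minus strand with an ETS motif, CALR at chr19:12938489-12938608 on the plus strand with TATA letters, and ATP2C1 at chr3:130850349-130850468 on the plus strand with a RUNX motif.

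Over the 300-base promoter of POLR3E, CTCF peaks stood at within-list percentiles of maximum signal of 99.94, 99.92 and 99.95 in shCtrl and 99.57, 99.83 and 99.86 in shSATB1, where 100 is the strongest peak of a list. Those over the CMC1 promoter stood at 80.24, 76.94 and 84.29 in shCtrl, and no shSATB1 list called one. The ATP2C1 promoter had 41.13, 18.35 and 15.01 in shCtrl and likewise none in shSATB1. A promoter at the top of the CTCF lists therefore kept its call, a promoter with a weak CTCF peak did not, and CMC1 shows that a peak in the upper part of the control lists could also go uncalled. The shSATB1 CTCF lists are shorter than the shCtrl ones, so a peak equally far from the top has a lower percentile there.

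Member promoters had a median of 26 CpG per window, against 21 over all promoters, 28 in those with CTCF and H3K27ac but no SATB1 and 27 in those with CTCF alone. RefSeq promoter windows (250 bases before to 50 after a start) were available for 15812 of 19974 protein-coding genes, 22132 windows in all, of which 4208 windows of 3293 genes overlapped a member. The ETS letters CCGGAAG lay on either strand of 20.2% of member promoters (95% Wilson interval 19.0 to 21.4), 12.8% of all windows and 23.3% of windows with CTCF and H3K27ac but no SATB1. NRF1 letters, GCGCANGCG, lay in 16.7% of member promoters and 9.66% of all, and YY1 letters, AAGATGGCG, in 4.78% and 2.42%. Members thus held more of these housekeeping motifs than all promoters did. Beside active CTCF promoters without SATB1 they held fewer ETS letters (22 to 24.7 there, so the intervals do not overlap), while the NRF1 and YY1 shares there were 16.5% and 4.78%.

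Letters of a CTCF site were uncommon. The core AGGGGGCGC lay in 1.83% of member promoters (1.47 to 2.28), in 2.43% of all, in 2.91% of those with CTCF and H3K27ac without SATB1, and in 5.10% (4.44 to 5.86) of those with CTCF alone. A second core form, AGGTGGCAG, lay in 0.665% of member promoters and 0.809% of all. RUNX letters, TGTGGTT, lay in 3.73% and 3.70%, and TATA letters, TATAAA, in 5.30% and 9.46%. AATATATTT, the core of an AT-rich unwinding element of the kind SATB1 is known to bind, lay in 1 member promoter (0.0238%) and in 0.303% of all. The median GC content was 64.0% in member promoters, 62.3% in all and 56.3% in promoters with neither CTCF nor H3K27ac. It was higher than in members in the other CTCF promoters, at 66.7% with H3K27ac and no SATB1, 68.0% with CTCF alone and 66.0% with SATB1 and no H3K27ac. The searched motifs can overlap one another, a match is a run of letters and not a bound site, and no sequence was used here for distal members.

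Member promoters with the CTCF core or NRF1 letters kept CTCF more often after knockdown than those without. The 77 with AGGGGGCGC had a CTCF peak in 96.1%, 100% and 98.7% of cases in the shSATB1 lists, and the 4131 without it in 83.3%, 89.1% and 92.2%. For NRF1 letters, the 704 with them had 89.9%, 95.2% and 95.7%, and the 3504 without 82.2%, 88.2% and 91.6%. The 201 with YY1 letters had 86.6%, 92.0% and 93.0%, and the 849 with ETS letters 80.3%, 86.3% and 90.7%. The 223 with TATA letters had 73.5%, 78.9% and 84.8%, and the 157 with RUNX letters 75.2%, 84.7% and 86.6%. These sets also differed in CTCF rank in shCtrl, with medians of 94.2, 95 and 94.7 for the CTCF core and 87.7, 87.5 and 88.3 for NRF1 letters. Medians were 84.5, 83.4 and 83.1 for YY1 letters and 80.9, 80.6 and 81.6 for ETS letters. They were 78.0, 78.0 and 78.2 for TATA letters and 78.5, 79.0 and 77.7 for RUNX letters. The part of that rank in the shares was not tested.

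Members sat at gene ends far more often than SATB1 regions without CTCF. The share within 2 kb of a gene end was 44.9% (95% Wilson interval 43.8 to 46.0, which like all intervals here covers counting error only), against 36.6% of SATB1 regions with CTCF alone, 5.18% of those with H3K27ac alone and 4.17% of those with neither. RefSeq promoter windows touched 2608 gene-end members (71.1%) and 274 distal ones (6.09%), so the remaining gene-end members lay at other annotated ends or at starts outside that table. Strand is not in the gene table, so starts and ends were not separated. Of the distal members, 2718 (60.4%) lay inside genes and 1781 (39.6%) outside, and their median distance from a gene end was 28258 bp. The limit itself divides a continuum: the gene-end member near PCDH10 lay 2000 bp from its gene end and the distal member near CCNI2 lay 2001 bp from its own.

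Members were wider than SATB1 regions with CTCF alone. Their median width was 1446 bp (gene end 1347 bp, distal 1550 bp), against 1119 bp with CTCF alone, 1434 bp with H3K27ac alone and 1189 bp with neither. Chromosome 19 had the largest share of SATB1 regions that were members, 82.9%, and chromosome 4 the smallest, 51.5%. On chromosome 19, which is dense in genes, 70.1% of members lay at gene ends, and on chromosome 21 27.6% did. Few members depended on a grazing overlap: 87.7% lay wholly inside a CTCF region and 84.4% wholly inside an H3K27ac region, while 86 and 35 had most of their length uncovered. The smallest overlap with CTCF was 15 bp, near SSBP2. Just outside the rule, a SATB1 region near CDCA7 touched a CTCF region with 0 bp between them, and one near LAMA3 lay 21 bp from H3K27ac.

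The maxima of the marks lay close together inside members. From the SATB1 maximum to the nearest CTCF maximum the median distance was 114, 116 and 119 bp in the shCtrl lists, and to the nearest H3K27ac maximum 125 and 132 bp. The maxima of the SATB1 lists lay 12 bp from each other. Gene-end members were tighter than distal ones, with CTCF at 86.0, 89.0 and 93.0 bp against 140, 144 and 145 bp and H3K27ac at 107 and 114 bp against 142 and 149 bp. Matrin 3 maxima lay closest, at 79.0 bp in its longer list and 71.0 bp in its shorter one. CTCF maxima stood over 1000 bp away in 19.1% to 20.5% of members called in a list, and in 24.6% to 26.1% of distal ones. No control library was used here, so these distances have no background value.

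**Figure D1:**
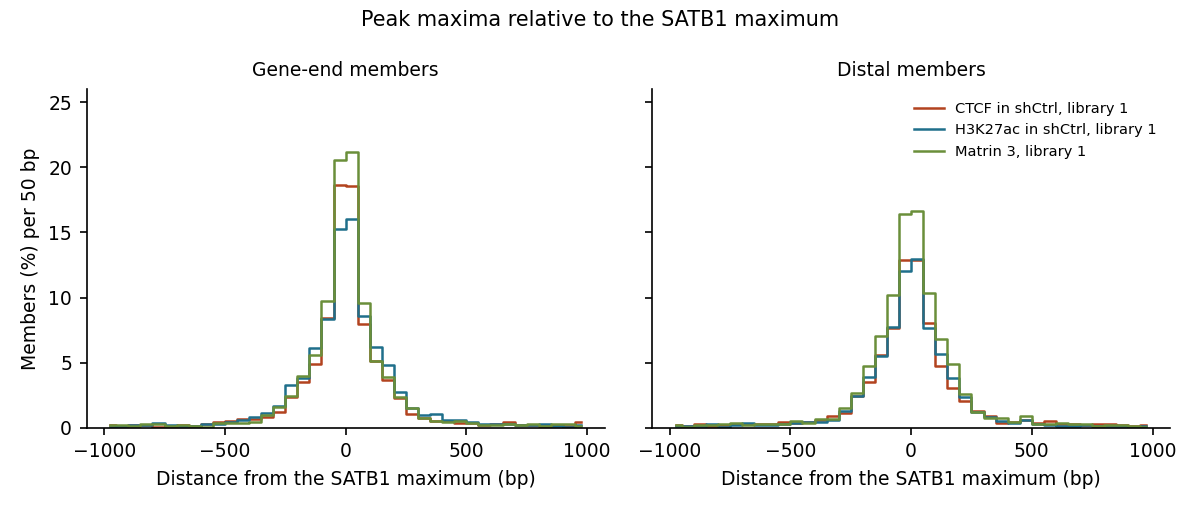
Distance in bp from the SATB1 maximum (first list) to the nearest maximum of CTCF and H3K27ac (first shCtrl list) and of Matrin 3 (longer list), as the percentage of members in each 50 bp step, for gene-end members on the left and distal members on the right. All curves peak at the SATB1 maximum, and the CTCF and H3K27ac curves are lower and broader at distal members, where the median distances were 140 and 142 bp.

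Matrin 3 was found at most members. The longer Matrin 3 list (24566 peaks) called 95.4% of members (94.9 to 95.8), against 83.1% of SATB1 regions with CTCF alone, 71.2% of those with H3K27ac alone and 43.7% of those with neither. The shorter list (2105 peaks) called 16.6%, 8.51%, 0.536% and 0.237% of these classes, the same order. Gene-end members were called in 98.1% and 27.7% of cases and distal members in 93.2% and 7.54%. The lists differ too widely in length for a common mean, and cut to the length of the shorter list the longer one called 21.4% of members.

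CTCF was called at fewer members in every shSATB1 library, and distal members accounted for most of the difference. The shCtrl lists called CTCF at 97.0%, 96.9% and 98.1% of members, values fixed near the ceiling by the rule, and the shSATB1 lists at 59.1%, 67.9% and 75%. Gene-end members went from 99.1%, 99.3% and 99.3% to 80.5%, 86.4% and 90.1%, and distal members from 95.3%, 94.9% and 97.2% to 41.7%, 52.7% and 62.6%. The gap between gene-end and distal members averaged 3.44 ± 1.12 points over the 3 shCtrl libraries and 33.3 ± 5.66 over the 3 shSATB1 libraries (SD), a difference of 29.9 points. The rule holds the shCtrl gap near 0, so only the shSATB1 gap is free to vary.

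Most of that pattern was already present among the stronger peaks of the control. With every CTCF list cut to its 14695 strongest peaks, the shCtrl lists called 84.2% ± 0.457 of gene-end members and 44.8% ± 0.607 of distal ones (SD, n = 3), and the shSATB1 lists 80.0% ± 0.405 and 40.3% ± 1.46 (n = 3). The difference between arms in the gap then was 0.303 points. Both kinds of member had a lower rate in shSATB1, by about the same number of points, and since CTCF calls in shCtrl and not in shSATB1 chose the members, the rule itself favours the shCtrl rate. Distal members ranked lower in the control lists, and a shorter list leaves out low ranks first. With depth unknown, fewer reads and less CTCF on chromatin cannot be told apart.

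**Figure D2:**
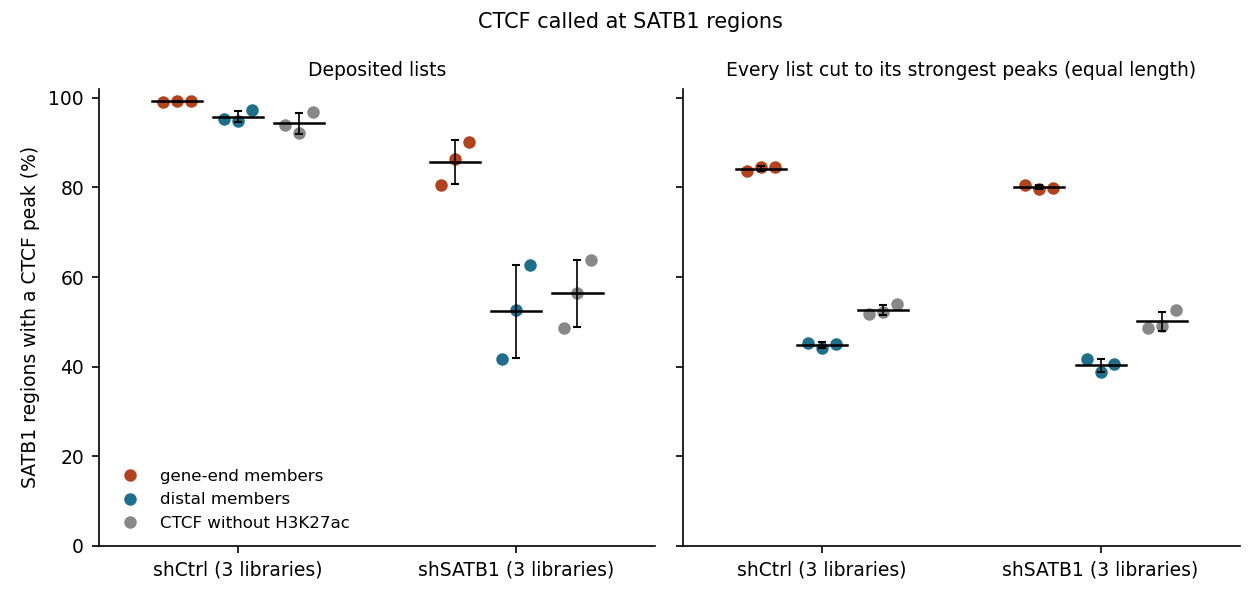
Percentage of SATB1 regions with a CTCF peak in each library (points), with the mean (line) and SD (bar), for gene-end members, distal members and SATB1 regions with CTCF and no H3K27ac. In the deposited lists on the left, distal members stand at 41.7% to 62.6% in shSATB1, below all shCtrl libraries; with lists of equal length on the right, they average 44.8% in shCtrl and 40.3% in shSATB1.

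Rank in the control lists tracked the outcome. Members were split into 5 equal classes (quintiles) by their mean CTCF percentile in shCtrl; 1430 distal and 203 gene-end members fell in the weakest quintile, and 453 and 1180 in the strongest. In the weakest quintile the shSATB1 lists called 18.4% ± 9.87 of gene-end and 14.6% ± 10.9 of distal members (SD, n = 3). In the middle quintile they called 84.3% ± 9.41 and 78.7% ± 11.1, and in the strongest 99.4% ± 0.245 and 93.7% ± 2.05. Within quintiles the gap between gene-end and distal members was 5.32 points wider in shSATB1. In the strongest quintile the values for the 3 libraries were 99.1%, 99.5% and 99.5% at gene ends and 91.4%, 94.7% and 95.1% at distal sites, which did not overlap.

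**Figure D3:**
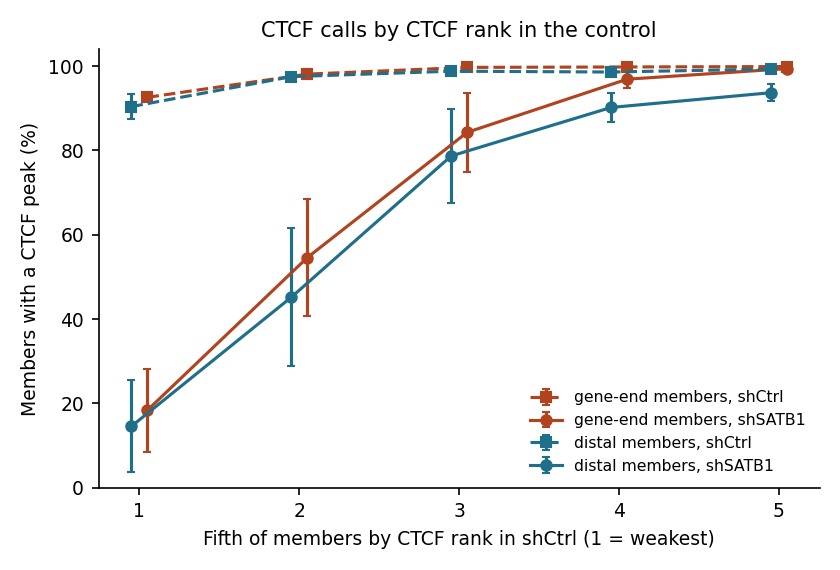
Percentage of members with a CTCF peak (mean and SD over 3 libraries) by quintile of mean CTCF percentile in shCtrl, from the weakest (1) to the strongest (5), for gene-end and distal members in each arm. The shSATB1 curves climb from 18.4% and 14.6% in the weakest quintile to 99.4% and 93.7% in the strongest, while the shCtrl curves stay above 90%.

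Members had CTCF more often after knockdown than SATB1 regions with CTCF and no H3K27ac. SATB1 regions with CTCF and no H3K27ac were called in 94.0%, 92.2% and 96.8% of cases in shCtrl and 48.7%, 56.5% and 63.8% in shSATB1. Members exceeded them by 3.01 ± 1.65 points in shCtrl and 10.9 ± 0.516 in shSATB1 (SD, n = 3), a difference between arms of 7.93 points. With lists of equal length members still stood higher in both arms, at 62.5% ± 0.270 against 52.7% ± 1.2 in shCtrl and 58.1% ± 0.981 against 50.1% ± 2.15 in shSATB1 (SD, n = 3). The difference between arms then turned to -1.79 points, and within quintiles of rank it was 2.78 points.

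By region, 1134 members (13.9%, 13.2 to 14.7) had a CTCF region called in every shCtrl and no shSATB1 library, and touched none called in shSATB1. Of all 34146 CTCF regions, 22.7% were called in every shCtrl and no shSATB1 library. Those regions were merged over both arms and include ones called in a single list, so the shares have different bases. Gene-end members contributed 201 (5.48%) and distal members 933 (20.7%), and SATB1 regions with CTCF alone stood at 18.8%. With lists of equal length 96 members met the criterion. CTCF was called in all 3 shSATB1 lists at 4619 members (56.6%): 78.2% of gene-end and 39.0% of distal ones.

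The members that lost CTCF were weak CTCF sites and ranked somewhat lower in H3K27ac. Their median CTCF percentile in the shCtrl lists was 20.5, 19.7 and 23.1, against 84.5, 84.3 and 84.9 for members that kept it in all shSATB1 lists. H3K27ac was called at 96.9% and 93.7% of them in shSATB1, against 98.8% and 97.2% of those that kept CTCF. Their median H3K27ac percentile was 75.2 and 73.2 in shCtrl and 72.1 and 70.3 in shSATB1, against 78.0 and 77.4, then 80.7 and 78.9, for the keeping members. In shCtrl the losing members stood at 64.8 and 65.7 at gene ends and 78.0 and 75.8 at distal sites, and the keeping ones at 73.1 and 71.7, and 87.7 and 87.1. The longer Matrin 3 list called 93.3% of the losing and 97.8% of the keeping members, and the shorter one 4.32% and 25.8%. Across all members, 1673 (20.5%) had CTCF in no shSATB1 list and H3K27ac in both, 1419 of them distal, while 35 had CTCF in all 3 and H3K27ac in neither.

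Among the losing members with the highest CTCF rank, TANK, an adaptor of innate immune signalling, lay 6.78 kb from the nearest one (chromosome 2, 161243011 to 161244880), whose CTCF percentiles were 76.49, 76.94 and 78.66 in shCtrl. EIF3E, a translation initiation factor gene, had 83.97, 75.37 and 74.76 at its end, and RPS6 had 71.86, 69.01 and 72.74. NSMCE2, which encodes a SUMO ligase of the SMC5/6 complex, had 61.68, 72.74 and 75.03 inside the gene. No shSATB1 list called CTCF over any of these, and H3K27ac was called at each in all 4 lists, for RPS6 at percentiles of 73.07 and 77.39 in shCtrl and 83.00 and 81.59 in shSATB1.

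H3K27ac stayed called at nearly all members. The shCtrl lists called 99.8% and 99.9% by the rule, and the shSATB1 lists 98.2% and 96.3%. SATB1 regions with H3K27ac and no CTCF were called in 98.9% and 98.9% of cases in shCtrl and 91.1% and 88.3% in shSATB1. Members exceeded them by 0.978 ± 0.0260 points in shCtrl and 7.6 ± 0.610 in shSATB1 (SD, n = 2), a difference of 6.62 points. The rule required H3K27ac of both classes in both shCtrl lists, which sets the shCtrl gap. The difference was 4.31 points with lists of equal length and 2.54 within quintiles of H3K27ac rank, so the direction held and the size did not. Members ranked higher in H3K27ac to begin with, at median percentiles of 78.6 and 77.4 in shCtrl against 57.0 and 55.7.

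Gene-end and distal members differed by about 1 point in H3K27ac calls, although distal members ranked higher. Median H3K27ac percentiles were 72.3 and 70.9 in shCtrl and 75.6 and 71.8 in shSATB1 at gene ends, and 85.0 and 84.2, then 83.6 and 82.4, at distal sites. Gene-end members were called in 98.9% and 96.6% of cases in shSATB1 and distal members in 97.7% and 96.0%. The gap moved from -0.0687 ± 0.0472 to 0.947 ± 0.457 points (SD, n = 2).

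H3K27ac was lost, that is called in both shCtrl and no shSATB1 library, at 73 members (0.894%, 0.712 to 1.12), against 5.95% of all 20526 H3K27ac regions and 5.06% of SATB1 regions with H3K27ac and no CTCF. The 20526 regions were merged over both arms and include ones called in a single list, so that share has a different base. Leaving out a shSATB1 library eases the definition of a loss: without replicate 1 the count of members was 257, and without replicate 2 it was 116. Losing members of high rank lay inside REC114, a meiotic recombination gene, at the end of GKN1, a gastric secreted protein gene, and inside PALM2AKAP2 and RALGAPA1. At REC114 (chromosome 15, 73554917 to 73556542) H3K27ac stood at percentiles of 58.51 and 57.40 in shCtrl and CTCF at 37.65, 27.65 and 34.86, and in shSATB1 CTCF was called once, at 3.87. These 4 members also lacked CTCF in at least 2 shSATB1 lists. Others did not: of the 92 members with H3K27ac in no shSATB1 list, 35 had CTCF in all 3. The same held for 4619 of all 8165 members.

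Peaks over members were shorter after knockdown, as peaks were everywhere. The median CTCF peak touching a member measured 2897, 2959 and 3182 bp in shCtrl and 1654, 1890 and 2041 bp in shSATB1, means of 3013 ± 150 and 1862 ± 195 bp (SD, n = 3). With lists of equal length the difference was -1443 bp in place of -1151 bp. The change was -38.2% at members and -34.1% over all CTCF peaks. H3K27ac peaks touching a member went from 2720 ± 36.1 to 2398 ± 101 bp (SD, n = 2), a change of -11.8% against -13.7% over all. At distal members the H3K27ac change was -15.8%, from 3505 to 2951 bp, and at gene-end members -9.94%, from 2335 to 2103 bp. The lowest total signal called also differed between the arms, at 6836 and 6653 in H3K27ac shCtrl and 4405 and 4476 in shSATB1; its part in the lengths was not tested.

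The highest SATB1 peaks of gene-end members lay at WDR74 (chromosome 11, 62839204 to 62842337) and at TAF12, a TFIID subunit gene (chromosome 1, 28647700 to 28649693). CTCF at WDR74 stood at 93.69, 91.71 and 92.70 in shCtrl and 90.37, 91.57 and 94.42 in shSATB1, with overlapping percentiles. TAF12 had 77.41, 76.00 and 78.66, then 74.63, 70.70 and 79.04. CALR, encoding the chaperone calreticulin, had 96.09, 97.07 and 96.74, then 93.91, 95.52 and 95.29. GTPBP1, a GTP-binding protein gene, had 96.09, 95.41 and 95.56, then 90.37, 91.74 and 94.42. Both genes had slightly lower percentiles in every shSATB1 list. Those lists are shorter, so a lower percentile alone does not show a fall in CTCF.

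A strong SATB1 peak could stand with weak CTCF. RTKN2 had the fourth strongest SATB1 site at a gene end, yet CTCF stood at 29.99, 22.25 and 19.48 in shCtrl and was called once in shSATB1, at 7.64. ATP2C1, which encodes a calcium and manganese pump of the Golgi, had CTCF in no shSATB1 list. Both kept strong H3K27ac, at 95.97 and 96.46 then 99.00 and 99.24 for RTKN2, and at 84.19 and 84.20 then 86.36 and 85.13 for ATP2C1. RNF169, VANGL1 and MND1 all kept CTCF above 70 in every list. NOP14, a gene of ribosome biogenesis, had the reverse makeup, with CTCF at 83.12, 83.98 and 85.34 in shCtrl and H3K27ac at 30.13 and 48.20.

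**Figure D4:**
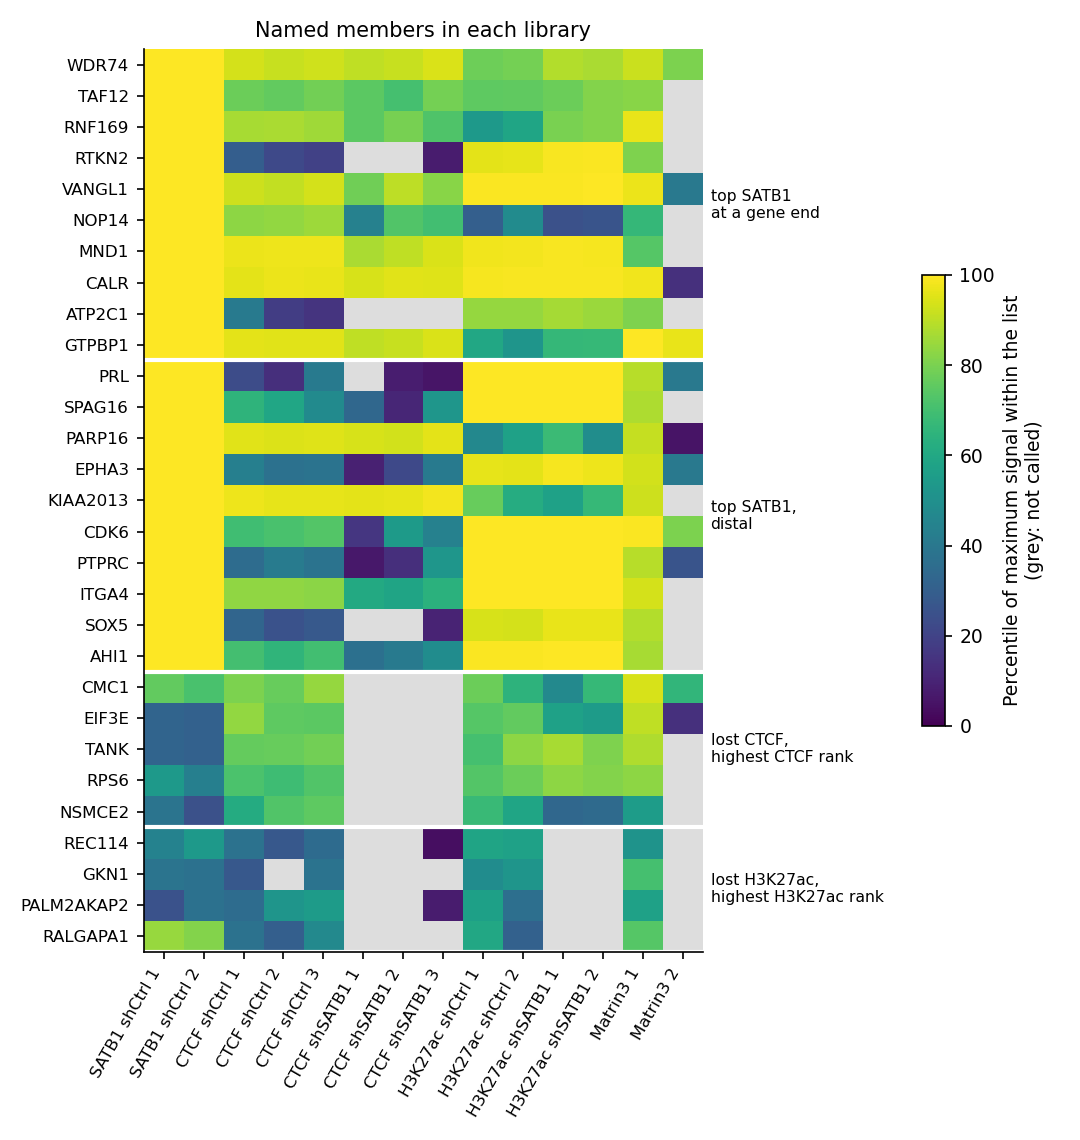
Percentile of maximum signal within each list (colour; grey where not called) for members named by rule, in 14 libraries: the 10 strongest SATB1 sites at gene ends, the 10 strongest distal ones, 5 high-ranked members that lost CTCF and 4 that lost H3K27ac. The distal sites near PRL, inside CDK6 and near PTPRC have H3K27ac above 99 in all 4 lists and CTCF under 75 wherever it was called, and CTCF is grey in all shSATB1 columns at ATP2C1 and the 5 CTCF-losing members.

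Distal members held the strongest SATB1 peaks of all, mostly in strong H3K27ac. The highest lay 240 kb from PRL (chromosome 6, 22044194 to 22047450), with H3K27ac at 99.93 and 99.86 in shCtrl and 99.95 and 99.94 in shSATB1; CTCF stood at 23.26, 13.46 and 41.07 in shCtrl and at 8.07 and 5.58 in the 2 shSATB1 lists that called it. Another lay inside CDK6, the cell cycle kinase gene (chromosome 7, 92751821 to 92764653), with CTCF at 69.41, 71.38 and 73.06, then 15.72, 54.52 and 43.82. One 410 kb from PTPRC, the nearest protein-coding gene, which encodes CD45, had CTCF at 35.20, 41.56 and 38.11, then 6.64, 13.34 and 52.59. CTCF percentiles were lower in every shSATB1 list than in every shCtrl list at CDK6 and PRL, and the PTPRC values overlapped. The shSATB1 lists are shorter, which lowers percentiles, so this separation alone does not show a fall in CTCF.

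The remaining distal sites varied in CTCF. Those inside EPHA3 and SOX5 and near SPAG16 had CTCF percentiles below 65 in all libraries and H3K27ac above 93. The member 146 kb from ITGA4, an integrin gene, had CTCF at 83.45, 83.59 and 82.68, then 60.71, 58.23 and 63.87. AHI1, a ciliary gene next to MYB, had 70.24, 65.42 and 69.55, then 37.10, 40.89 and 48.46. Members near PARP16 and KIAA2013 instead had CTCF above 90 throughout and middling H3K27ac: PARP16 stood at 95.51, 94.91 and 95.12, then 94.08, 93.24 and 96.05, with H3K27ac at 46.70 and 57.40 in shCtrl. A percentile is relative to a list, and the shSATB1 lists are shorter, so the same peak has a lower percentile in a list that lacks the weak ones.

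Most members had an H3K27ac region to themselves, and a few shared long ones. The 8165 members lay in 6970 H3K27ac regions, 6158 of which held 1 member, while 41 held at least 5 and together 262. The longest was 115 kb over CDK6 (chromosome 7, 92602090 to 92717406) with 10 members, of which 3, 5 and 7 had CTCF in the shSATB1 lists. Further regions of 69.7 and 66.7 kb held 9 members each, the first inside the same gene and the second reaching past its annotated end. ETV6, a haematopoietic transcription factor gene, had a region of 77.5 kb with 8 members. A region of 76.9 kb with 5 members (chromosome 5, 134074414 to 134151354) began inside VDAC1, a mitochondrial channel gene. It ran past the end of that gene at 134114540.

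The genes with the most distal members inside them, chosen after their values were seen, were RUNX1 (27 members in 262 kb), CDK6 (26 in 232 kb), VAV3 (16 in 394 kb) and GALNT2 (15 in 224 kb). RUNX1 is a master regulator of blood cell development and VAV3 an exchange factor in lymphocyte signalling. CTCF was called at 4, 8 and 15 of the RUNX1 members in the shSATB1 lists and at 6, 8 and 10 of those in CDK6. The shares over all distal members were 41.7%, 52.7% and 62.6%. Neighbouring members of one domain share their H3K27ac region, so they are not separate observations.

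T cell genes often had a member at an end. Across the genome, 4364 of 19974 protein-coding genes (21.8%) had a member within 2 kb of an end. The T cell receptor signalling list reached 14 of 20, the thymocyte and recombination list 11 of 16, and the transcription factors of the T lineage 11 of 20. These genes are not all separate observations: CD3D and CD3G had the same member, and the thymocyte genes include the neighbours CD1A to CD1E. CTCF, cohesin and architecture genes stood at 15 of 24, cell cycle genes at 10 of 20, and acetylation enzymes, immediate-early genes and ribosomal protein genes at 9 of 20 each. Leukaemia circuit genes had 7 of 20. Markers of other lineages stood within 2 genes of the count that the share over all genes gives: 2 of 12 B cell, 2 of 14 myeloid, 2 of 12 erythroid and megakaryocyte and 1 of 12 epithelial and stromal genes.

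Shares were higher among genes with CTCF and H3K27ac at an end, called active here. The rule fixes that rise, because every member carries both, and 4361 of the 4364 genes with a member were active. Of the 7616 genes with CTCF and H3K27ac at an end, 57.3% had a member there. In that set the share was 14 of 16 for T cell receptor genes, 11 of 12 for thymocyte genes, 11 of 15 for T-lineage factors, 15 of 23 for architecture genes, 10 of 19 for cell cycle genes and 9 of 18 for ribosomal protein genes. Immediate-early genes had 9 of 14, leukaemia circuit genes 7 of 12, B cell markers 2 of 5, myeloid markers 2 of 3, erythroid and megakaryocyte markers 2 of 2 and epithelial and stromal markers 1 of 1. The active markers of other lineages are too few to set beside the T cell lists, and all of these are counts with no test.

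**Figure D5:**
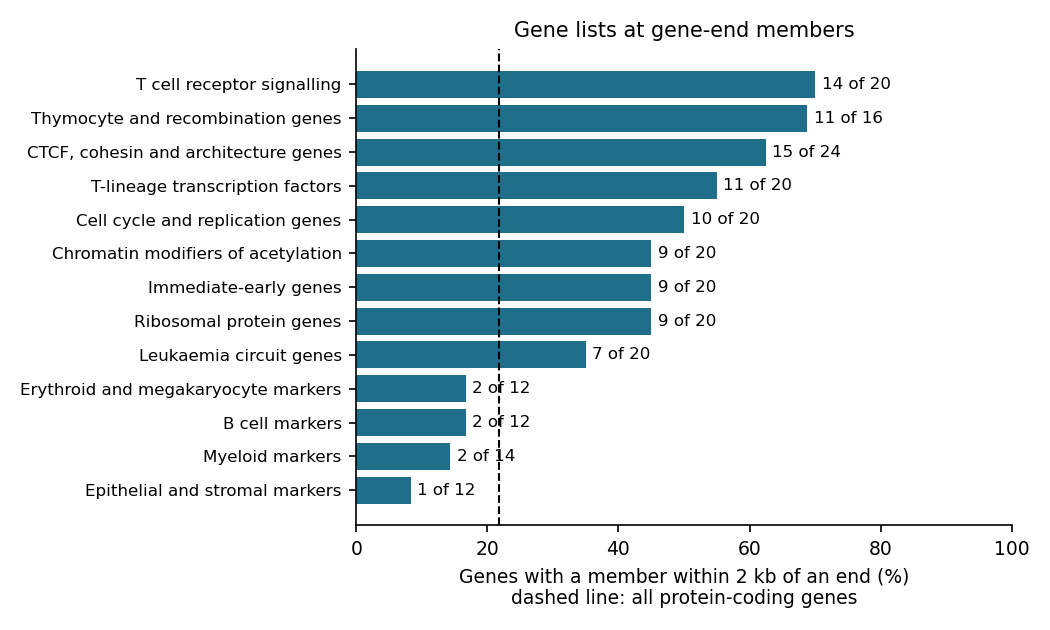
Percentage of the genes in each list that have a member within 2 kb of an end, with the counts beside the bars and the 21.8% of all protein-coding genes as a dashed line. T cell, thymocyte and architecture lists reach 55.0% to 70.0%, and markers of other lineages 8.33% to 16.7%.

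Percentiles for a listed gene are those at its end member with the highest SATB1 peak, whether or not it lay at a promoter. At CD3E, CD2, SH2D1A, RUNX1, IKZF3, LEF1, SATB1 and NR4A1 that member touched no RefSeq promoter window. Among T cell receptor genes, CTCF was called over a member in the shSATB1 lists at 12, 12 and 13 of 14, and H3K27ac at all 14 in both. Over all 4364 genes with a member, the counts were 3654, 3892 and 4006 for CTCF and 4328 and 4244 for H3K27ac. The receptor list stood near those shares. CD3E, a chain of the receptor complex, had CTCF at 77.12, 78.29 and 80.45 in shCtrl and 62.57, 43.55 and 68.73 in shSATB1. CD2, an adhesion receptor, had 82.37, 85.46 and 82.20, then 15.72, 19.07 and 48.46, a lower percentile in every shSATB1 list. CD28, the costimulatory receptor, went from 38.80, 46.30 and 37.07 to none, with H3K27ac at 98.39 and 97.78, then 96.91 and 97.42.

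Kinases at the receptor itself had strong CTCF in shCtrl. LCK, which phosphorylates the receptor, had 87.94, 88.86 and 88.75, then 29.85, 86.09 and 84.36, so 1 shSATB1 list stood apart. ZAP70, the kinase recruited next, had 85.70, 85.02 and 81.26, then 26.30, 71.74 and 54.65. Their SATB1 peaks were middling to weak, with mean percentiles of 68.61 at LCK and 15.71 at ZAP70.

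Of the 11 thymocyte genes with a member, 6, 7 and 9 still had CTCF over one in the shSATB1 lists, beside 3654, 3892 and 4006 of all 4364 genes with a member. PTCRA, the pre-T cell receptor chain, had CTCF at 15.07, 5.44 and 3.45 in shCtrl and none in shSATB1. SH2D1A, a signalling adaptor, had CTCF over the member itself in 1 shCtrl list, at 5.38, and in no shSATB1 list. DNTT, the terminal transferase of antigen receptor recombination, had 95.44, 52.32 and 93.61, then 1 call at 12.58. CD8A, a coreceptor gene, was the opposite case, and CTCF stood at 92.59, 91.83 and 92.17, then 84.13, 92.26 and 92.84, while its H3K27ac was weak at 12.90 and 9.24 in shCtrl and called in 1 shSATB1 list, at 2.50.

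Transcription factor genes of the lineage kept CTCF in 10, 11 and 11 of 11. The counts over all 4364 genes with a member were 3654, 3892 and 4006, and so short a list does not stand apart from that share. BCL11B, which fixes T cell commitment, had 99.34, 99.48 and 99.53, then 98.69, 98.48 and 99.24. IKZF3, a lymphoid zinc finger factor, had 98.68, 98.63 and 98.79, then 98.03, 98.54 and 99.24. RUNX1 had 95.62, 95.84 and 95.70, then 79.90, 88.91 and 90.84. These were strong CTCF sites, while LEF1, a Wnt pathway factor, stood lower at 56.42, 66.43 and 69.16, then 49.40, 35.17 and 65.20.

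The SATB1 gene itself had a member 1.92 kb from its end (chromosome 3, 18442186 to 18443676) with a weak SATB1 peak, at a mean percentile of 13.19. CTCF there stood at 80.24, 77.47 and 85.34 in shCtrl and was called over this member in no shSATB1 list, whereas H3K27ac stood at 59.92 and 52.11, then 57.37 and 57.23. A second member at the same end (18444982 to 18446532) lay under the same shCtrl peaks, with equal percentiles, and kept CTCF at 78.30, 71.74 and 68.73 in shSATB1. The hairpin acts on the transcript, so the peaks do not check the knockdown.

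Architecture genes had CTCF over a member in 14, 15 and 14 of 15 in the shSATB1 lists. All 4364 genes with a member gave 3654, 3892 and 4006, a share from which this short list does not stand apart. The CTCF gene itself had 99.05, 98.79 and 98.92, then 98.06, 98.43 and 98.46. STAG1, a cohesin subunit gene, had 99.84, 99.91 and 99.90, then 99.49, 99.61 and 99.60. SMC3, another cohesin subunit gene, was far weaker at 33.92, 49.05 and 38.11, then 6.64, 5.83 and 12.58. ZNF143, a promoter-binding factor that is often found beside CTCF, carried the strongest SATB1 site of the list, with a mean percentile of 98.90, and CTCF at 87.80, 85.75 and 85.34, then 77.37, 72.72 and 79.65.

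All 9 immediate-early genes with a member kept CTCF over one in all 3 shSATB1 lists. Of all 4364 genes with a member, 3654, 3892 and 4006 had CTCF over one in those lists. With 9 genes, the list does not stand apart from that share. EGR1 had 99.08, 99.00 and 99.13, then 97.10, 98.73 and 98.39, and NR4A1 had 99.35, 99.17 and 99.15, then 98.34, 98.97 and 99.62. Each had a weak SATB1 peak, with mean percentiles of 18.98 and 15.74, whereas JUN, which encodes an AP-1 subunit, had 98.64. At PCNA, the replication clamp gene, CTCF stood at 99.50, 99.51 and 99.49, then 98.69, 98.84 and 99.33. CDK1, the mitotic kinase gene, had 54.11, 48.16 and 52.22 in shCtrl and 1 call, at 18.01, in shSATB1.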

How the data were processed

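The data were 14 CUT&Tag peak lists from Jurkat cells, 1 per library, on GRCh38. The submitters' processing notes name SEACR, deepTools, SAMtools, Bowtie2 and Trim Galore for every library, and MACS2 except for Matrin 3. Their versions are not given in the sources used here. Deposited values are the total and maximum signal of each peak, for which the authors record no scaling, so signal was used only to rank peaks within a list. Read depth is unknown.

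Chromosomes 1 to 22 and X were used (0 to 47 peaks per list lay elsewhere), and peaks sharing 1 bp were merged. A region was called in a library where a peak overlapped it. Genes and promoter sequences were those of RefSeq GRCh38.p14. Shares of regions carry 95% Wilson intervals. The planned exact permutation tests over libraries were run, and their p-values are not printed, because the rule used the control lists. The functions were tested on simulated data. Members, gene lists and the rule for named members (the 10 highest SATB1 sites per kind, the 5 highest-ranked losses per mark, the 5 longest H3K27ac regions, listed genes and the limits of the rule) were chosen with earlier results of these data known; of the listed genes, those printed were picked after their values were seen. Alternatives were other overlap rules, stricter lists, 500 bp windows on the maxima, CTCF in all 3 lists, lists of equal length, quintiles of rank, other gene windows, the replicate block and leaving out each library. A few members and genes that these rules name are not reported here. Scripts ran under Python 3.11.15 with scipy 1.17.1, pandas 2.3.3, numpy 2.4.6 and, for plots, matplotlib 3.10.9.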

Additional observations from a re-analysis of the deposited data

How the results depend on the processing

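With CTCF lists of equal length the difference in CTCF calls between members and SATB1 regions with CTCF alone turned to -1.79 points, and the members that lost CTCF numbered 96 in place of 1134, while the difference in CTCF length was -1443 bp in place of -1151 bp. Members numbered 2694 among the peaks above the median signal of every list and 5247 in 500 bp windows, in place of 8165. The gene-end share was 41.4% with gene ends at 1 kb, 51.6% at 5 kb, 56.6% among the peaks above the median and 50.8% in the windows, against 44.9%. Matrin 3 called 88.0% of members where no less of the region had to be covered than not and 21.4% with the longer list cut to the length of the shorter, against 95.4%. The median distance between CTCF and SATB1 maxima, averaged over the shCtrl libraries, was 116 bp, 143 bp at distal members and 72.7 bp among the peaks above the median.

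Without each library in turn, members numbered 7848 to 9074, the gene-end share was 44.4% to 46.3%, lost H3K27ac 76 to 257 and lost CTCF 1165 to 1698. Leaving out a library eases the definition of a loss, so these loss counts lie above the 73 and 1134 with all libraries. The gap between gene-end and distal CTCF calls grew by 27.1 to 32.8 points (0.303 with lists of equal length), that in H3K27ac calls by 0.692 to 1.34, and the differences in CTCF and H3K27ac calls were 6.43 to 8.88 and 6.19 to 9.32 points. CTCF and H3K27ac lengths differed by -1240 to -1047 and -394 to -250 bp. Kept direction does not mean kept size: within quintiles of rank the gap grew by 5.32 points in place of 29.9, the difference in CTCF calls was 2.78 in place of 7.93 and that in H3K27ac calls 2.54 in place of 6.62. Alternatives chosen after seeing the data changed little: with the CTCF maximum inside the region the gene-end gap grew by 30.8 points, with promoter windows by 29.1, and by a CTCF peak over the member itself 1324 members had lost CTCF.

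No pairing of libraries by replicate number was seen region by region: correlations of their deviations from the group means lay between -0.024 and 0.028. A shift shared by all regions leaves no such correlation, so this check cannot exclude pairing. With the replicate block the differences were by construction the same, 7.93 and 29.9 points for CTCF calls, 6.62 and 1.02 for H3K27ac calls, -1151 bp for CTCF length and -322 bp for H3K27ac length. Depth is unknown, so a missing call cannot be told apart from a site below the calling limit of its list.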
